A study of Mus musculus with 6 samples.

Results

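Egr1, Egr2, Egr3 and Fos encode immediate early transcription factors, and their expression was followed in mouse cells transfected with Lhx8 siRNA and in vehicle-treated cells. The 4 genes were taken by gene symbol from the 817 genes deposited for the study. Egr1 (ENSMUSG00000038418) and Fos (ENSMUSG00000021250) stood in a list of estimated read counts of 232 genes, termed the count list. Egr2 and Egr3 stood in a second list of 602 genes, whose values are of unknown scale. The rule for the 4 genes is their symbol alone, but it was written with results of these data known, and every gene of both lists had been deposited as part of a comparison of the same groups.

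The study sequenced poly(A) RNA of 6 libraries. Of these, 3 came from cells given Lhx8 siRNA, which is directed against the LIM homeobox factor Lhx8 and which the labels term LHX8 deficient, and 3 came from wild-type cells given only the transfection reagent Turbofectamine (vehicle). The labels name preadipocytes of the 3T3-L1 line, number that line upward from library to library, and are silent on separate cultures within a group, so any p-value reflects spread among libraries that may be technical. Preadipocytes are the fibroblast-like precursors of fat cells, whereas the study speaks of cultured adipocytes. The sequenced controls carried no siRNA, so an effect of Lhx8 loss and one of transfecting any siRNA cannot be told apart. Lhx8 itself was in neither list, and its knockdown was not checked here. Among 17 preadipocyte and fibroblast markers, Pdgfra, Ly6a and Col3a1 were in the second list, and Adipoq, Lpl and Scd1 were the listed ones of 18 adipocyte markers. The other markers of both cell types were not analysed here.

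Immediate early genes are transcribed within minutes of a stimulus, without new protein synthesis. Growth factors act on receptor tyrosine kinases, the signal passes through the Ras and ERK kinase cascade, and phosphorylated Elk factors with serum response factor (SRF) start transcription at CArG boxes. Adrenergic stimuli reach the same genes through cAMP and CREB, which binds cAMP response elements. The products are short-lived transcription factors. Egr1, Egr2 and Egr3 share a zinc finger domain that binds GC-rich DNA, and Fos pairs with Jun proteins to form AP-1. In fat cell precursors, Egr2 (Krox20) is known as an early promoter of adipogenesis that induces Cebpb, and Egr1 as an inhibitor of it.

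Promoter windows were looked up for these genes, because CREB and SRF sites are the best known routes of their induction. RefSeq tables (GRCm38.p6) held windows for 8 of the 12 listed immediate early genes. The windows of Fos and Egr2 are shown, from 250 bases before to 50 bases after the start site. Egr2 had 5 windows, and the 1 shown lies at the first start of a well-supported GENCODE M21 transcript. The other windows are not printed. Capitals mark CArG boxes and, on either strand, the sequence TGACG of the core cAMP response element and TATAAA. The alignment build of the study is not stated in its methods or labels.
Fos, chr12:85473640-85473939, plus strand: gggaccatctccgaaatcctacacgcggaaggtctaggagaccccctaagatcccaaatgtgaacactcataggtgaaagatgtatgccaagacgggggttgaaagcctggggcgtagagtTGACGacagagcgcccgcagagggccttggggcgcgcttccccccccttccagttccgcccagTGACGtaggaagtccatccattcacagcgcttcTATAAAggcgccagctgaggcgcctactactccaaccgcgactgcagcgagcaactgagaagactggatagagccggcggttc
Egr2, chr10:67537619-67537918, plus strand: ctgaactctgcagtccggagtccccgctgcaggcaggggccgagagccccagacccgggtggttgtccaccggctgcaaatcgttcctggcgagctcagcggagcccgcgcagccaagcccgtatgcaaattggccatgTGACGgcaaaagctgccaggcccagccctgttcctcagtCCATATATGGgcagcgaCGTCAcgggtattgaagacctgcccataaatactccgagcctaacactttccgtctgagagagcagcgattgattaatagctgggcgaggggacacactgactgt
The Fos window held TGACG at positions -129 and -66 from the start site and TATAAA at -33. The Egr2 window held a CArG box, the sequence CCATATATGG, at -72, with TGACG at -111 and, on the opposite strand, at -55. A CArG box was present in 1.63% of all 32851 windows of this length, TGACG in 20.8% and TATAAA in 13.6%. Counted by gene, at least 1 window held them in 1.81%, 23% and 15.7% of 27025 genes. Of the 8 genes with a window, 1 held a CArG box, 5 held TGACG and 6 held TATAAA in at least 1 window. Egr1 and Egr3 had no window, and sites farther than 250 bases upstream of a start site were not searched for any gene. No window of the 8 genes held the full palindrome TGACGTCA, which overlaps TGACG and was in 1.79% of all windows. None held the Egr site GCGTGGGCG (0.612% of all windows) or the AP-1 site TGANTCA (7.81%), both read on either strand. These are matches of letters only, and binding was not measured.

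Egr1 and Fos had lower mean counts with siRNA, but a single vehicle library carried that difference. Egr1 had estimated counts of 811, 761 and 778 in siRNA libraries 1, 2 and 3, against 1094, 659 and 3812 in vehicle libraries 1, 2 and 3. The siRNA libraries lay close together, between the counts of vehicle 2 and vehicle 1, so the groups overlapped. Means were 783 ± 25.4 with siRNA and 1855 ± 1709 with vehicle (SD, n = 3 each). Fos had counts of 135, 116 and 105 with siRNA, and of 186, 95 and 545 with vehicle. The siRNA counts again lay between those of vehicle 2 and vehicle 1, with vehicle 3 far above all others. Means were 119 ± 15.2 and 275 ± 238 (SD, n = 3 each). All 12 counts of these genes were whole numbers, against 86.8% of the values of the list, whose fractions are of the kind RSEM gives for reads split between similar genes.

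**Figure D1:**
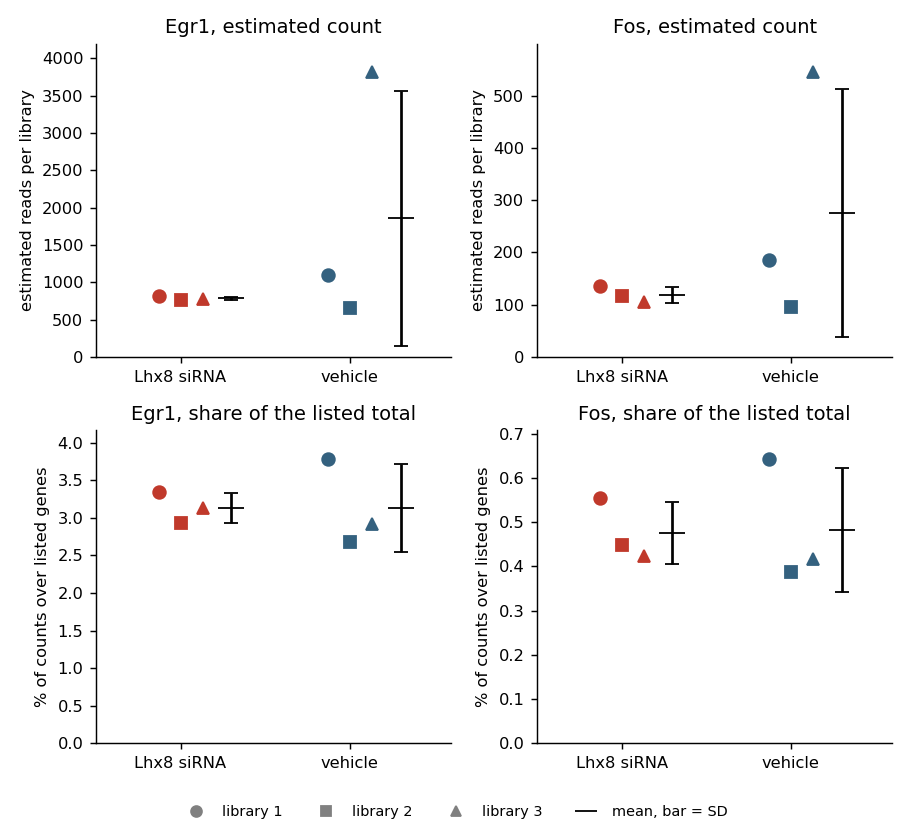
Estimated counts (upper row, reads per library) and the share of all counts over the 232 listed genes (lower row, percent) of Egr1 and Fos in each library, siRNA left and vehicle right. The horizontal bars are means and the vertical bars are SD of 3 libraries. Vehicle 3 stands far above the others in counts (3812 for Egr1 and 545 for Fos) but lies within the range of the other libraries as a share (2.92% and 0.418%).

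Neither gene passed edgeR's quasi-likelihood test with 1 common library size. The log2 fold of siRNA over vehicle was -1.24 ± 0.836 (SE) for Egr1, with an adjusted p of 0.317 over the 232 genes (0.145 unadjusted, edgeR). It was -1.21 ± 1.03 for Fos, with an adjusted p of 0.323 (0.245 unadjusted, edgeR). In the count list 0.0% of genes passed at an adjusted p of 0.05 (0 of 232, edgeR), while 27 lay under 0.05 before adjustment, DESeq2 called 1 gene under its default size factors and 0 when these were set to 1, and limma-voom called 0. A negative fold was the rule there and held for 89.2% of the genes, with a median of -1.55. The groups overlapped for both genes, whereas they did not overlap for 18.5% of the list. An exact two-sided permutation test of log2(count + 1) gave p = 0.40 for each gene, where 3 against 3 libraries allow no p below 0.10. Without vehicle 3, the log2 fold was -0.16 ± 0.223 for Egr1 (783 ± 25.4 with siRNA, n = 3, against 877 ± 308 with vehicle, n = 2). For Fos it was -0.24 ± 0.313, with 119 ± 15.2 against 141 ± 64.3. The adjusted p without vehicle 3 was 0.763 for both (edgeR).

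Vehicle 3 was the highest of the 6 libraries for both genes, as it was for 86.6% of the count list. Over the 128 genes whose counts averaged 20 or more, its median log2 distance from the mean of vehicle 1 and 2 was 2.48. That distance was 2.17 for Egr1 and 2.03 for Fos, a 4.49-fold and a 4.08-fold excess, and 38.3% and 32.0% of the 128 genes lay below them. Both genes were thus raised in that library somewhat less than the middle gene of the list. Distances of single genes ran from -4.55 for Cd207 to 6.09 for Cilp. No single factor therefore relates vehicle 3 to the other vehicle libraries, and rescaling it removes only a common part.

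**Figure D2:**
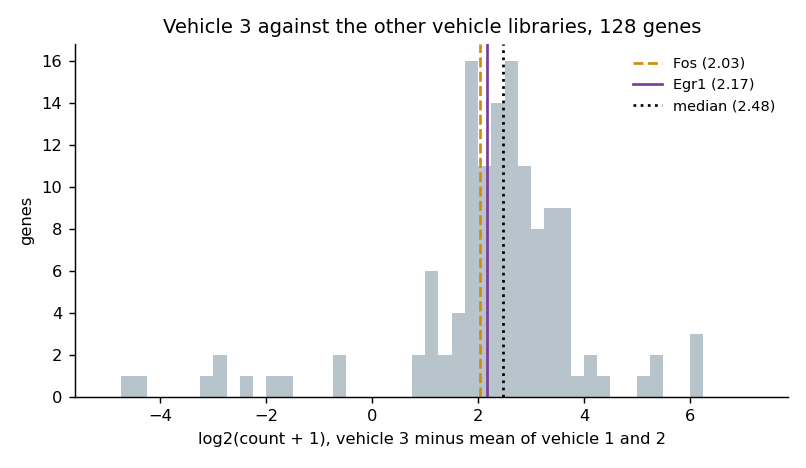
Distance of vehicle 3 from the mean of vehicle 1 and 2 in log2(count + 1) (horizontal axis) for the 128 genes of the count list whose counts averaged 20 or more (vertical axis, number of genes). Egr1 (2.17, solid line) and Fos (2.03, dashed line) lie left of the median gene (2.48, dotted line).

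As shares of the listed counts the groups were nearly level. The totals over the 232 genes ranged over 24314 to 25922 counts among siRNA libraries, against 28920, 24570 and 130467 for vehicle 1, 2 and 3. Such totals are not library depths, which are unknown. Egr1 made up 3.34%, 2.94% and 3.13% of these totals with siRNA, and 3.78%, 2.68% and 2.92% with vehicle. Means were 3.13% ± 0.200 and 3.13% ± 0.579 (SD, n = 3 each). The siRNA libraries and vehicle 3 lay between vehicle 2 and vehicle 1. Fos made up 0.555%, 0.447% and 0.423% with siRNA, and 0.643%, 0.387% and 0.418% with vehicle. Means were 0.475% ± 0.0705 and 0.483% ± 0.140 (SD, n = 3 each), and the order of the vehicle libraries was that of Egr1 at both ends, with vehicle 1 highest and vehicle 2 lowest. By trimmed mean scaling (TMM), which moved the median log2 fold of the list to -0.12, the log2 folds turned positive, 0.05 ± 0.227 for Egr1 and 0.02 ± 0.322 for Fos. Exact two-sided permutation tests of the log2 shares gave p = 0.90 for Egr1 and p = 1.00 for Fos. Relative to the list, neither difference exceeded the spread between libraries.

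**Figure D3:**
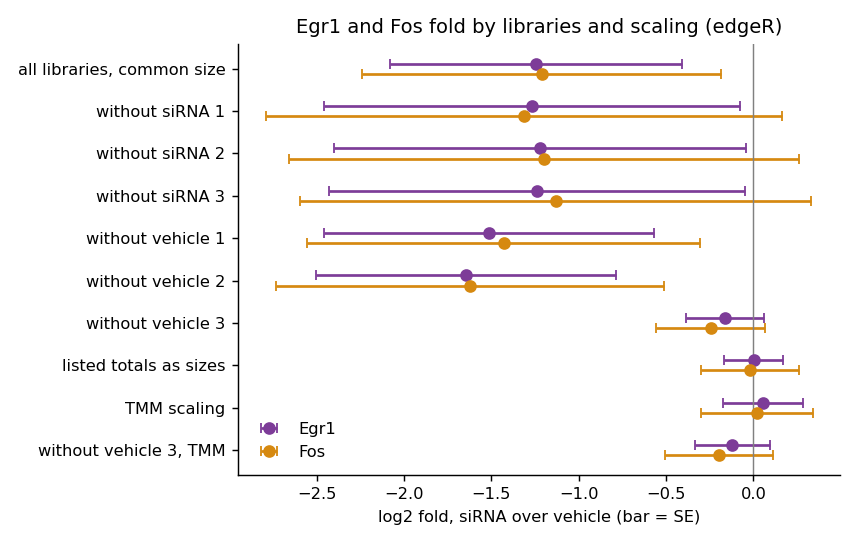
Log2 fold of siRNA over vehicle (horizontal axis, edgeR, bars are SE) of Egr1 and Fos with all libraries, with each library left out in turn, and with other scalings (rows). Folds lie between -1.65 and -1.13 while vehicle 3 is included at a common size. They lie between -0.24 and 0.05 without vehicle 3 or under another scaling.

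Counts of these genes were also unequal in the remaining vehicle libraries. Vehicle 1 exceeded vehicle 2 by a factor of 1.66 for Egr1 and of 1.95 for Fos. The median gene had a factor of 1.00, and 86.7% and 90.6% of the 128 genes lay below the values of Egr1 and Fos. Counting error alone gave 95% Poisson intervals of 1030 to 1161 and 610 to 711 for Egr1 in these libraries, and of 160 to 215 and 76.9 to 116 for Fos. These intervals hold neither library depth, which is unknown, nor variation between cultures, so they do not test the difference. With siRNA, by contrast, the highest library exceeded the lowest by a factor of 1.07 for Egr1 and of 1.29 for Fos. Whether the groups differ in this spread was not tested.

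Egr1 and Fos kept a near-constant proportion to each other. A ratio within a library does not depend on its size. The count ratio of Fos to Egr1 was 0.167, 0.153 and 0.136 for the siRNA libraries, against 0.170, 0.145 and 0.143 for the vehicle libraries. Over these 6 libraries, in which Egr1 counts spanned 659 to 3812, the ratio stayed between 0.136 and 0.170, and the groups overlapped. Most of that span came from vehicle 3, which was raised for most genes of the list. Without vehicle 3, Egr1 counts spanned only 659 to 1094. The log2 ratio differed by -0.01 ± 0.119 between siRNA and vehicle (SE, n = 3 each, exact two-sided permutation p = 1.00). Per kilobase of the longest listed transcript (4484 bases for Egr1 and 2108 bases for Fos, GENCODE M21), counts of Egr1 were 170 to 181 with siRNA and 147 to 850 with vehicle. Those of Fos were 49.8 to 64.0 with siRNA and 45.1 to 259 with vehicle. Per length, Egr1 therefore exceeded Fos by a factor of 2.82 to 3.48 in siRNA libraries and of 2.77 to 3.29 in vehicle libraries.

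The closeness of the pair was also ranked against that of the other genes. Profiles were compared by the root mean square distance of log2(count + 1) over the 6 libraries, each gene centred on its own mean, among the same well-counted genes. The nearest genes to Egr1 were Lce1f, a late cornified envelope gene (distance 0.107), Fos (0.119) and Cbs, cystathionine beta-synthase (0.138). Those nearest to Fos were Egr1 (0.119), Lce1f (0.141) and Akr1b3, aldose reductase (0.191). The median distance was 0.444 to Egr1 and 0.508 to Fos over 127 genes. Lce1f had counts of 83.9, 82.0 and 69.0 with siRNA and of 100, 69.1 and 360 with vehicle, again with vehicle 3 highest and vehicle 1 above vehicle 2. These distances describe 6 libraries of which 1 stands apart, and they share that library. The distance between Egr1 and Fos restates the spread of their ratio and adds no separate evidence. As Lce1f lay nearer to Egr1 than Fos did, the likeness was not particular to the pair.

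Few genes of the chosen marker lists of other cell types were in the count list, and these partly followed the same library. The marker lists do not cover every such gene of the count list. Clec14a, an endothelial lectin and the only listed 1 of 11 endothelial markers, had 46 to 68 counts with siRNA and 56 to 432 with vehicle. Msln, which encodes the mesothelial protein mesothelin and was the only listed 1 of 19 epithelial and mesothelial markers, had 599 to 718 counts with siRNA and 588 to 3698 with vehicle. The highest of these was vehicle 3 in both cases. The summed counts of the 3 listed of 23 leukocyte markers (Itgb2, Cd207 and Crtam) were 78 to 101 with siRNA and 63 to 224 with vehicle, and vehicle 3 was the highest for Itgb2 alone. Cd207 went the other way, with a count of 1 in vehicle 3 and of 45 to 78 in the other libraries. The sum therefore describes no common change of these markers. The defining markers Ptprc, Pecam1, Cdh5 and Epcam were not analysed here. The part of such cells in the counts of Egr1 and Fos was not tested, and in bulk RNA a change in the number of expressing cells and one in RNA per cell cannot be told apart.

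Egr2 and Egr3 in the second list were lower with siRNA in every library that held a genuine value. Some cells of that table had been turned into date formats, and these equal the mean of the other values of their group within 0.01, so they were ignored. Egr2 had values of 14.2 and 15.8 in siRNA 1 and 3, against 19.8 and 19.2 in vehicle 1 and 3. Both siRNA values lay below both vehicle values, and library 2 gave no genuine value in either group. Means were 15.0 ± 1.13 with siRNA and 19.5 ± 0.403 with vehicle (SD, n = 2 each), so that the siRNA mean was 76.8% of the vehicle mean. Egr3 had values of 5.96, 5.61 and 6.47 with siRNA, against 7.93 and 8.99 in vehicle 1 and 3. The 3 siRNA values lay below both vehicle values. Means were 6.01 ± 0.432 (SD, n = 3) and 8.46 ± 0.750 (SD, n = 2), the siRNA mean being 71.1% of the vehicle mean.

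**Figure D4:**
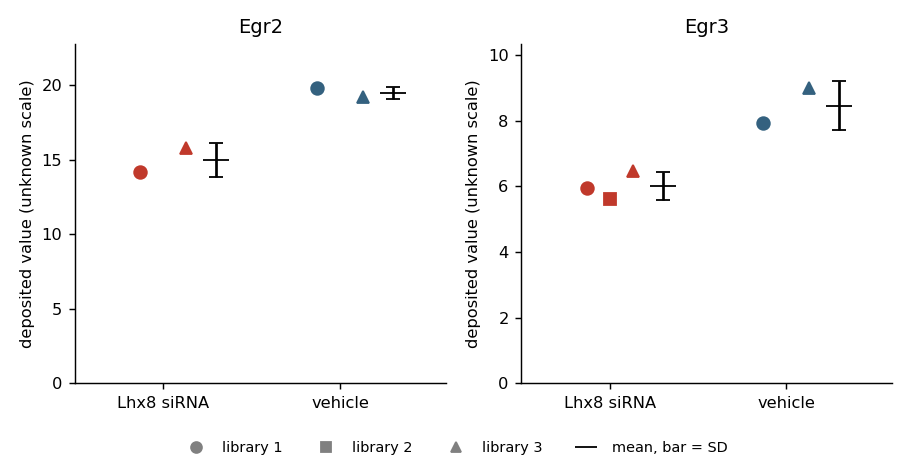
Deposited values of Egr2 and Egr3 (vertical axis, unknown scale) in each library with a genuine value, siRNA left and vehicle right. The horizontal bars are means and the vertical bars are SD. Values of Egr2 run from 14.2 to 15.8 with siRNA and from 19.2 to 19.8 with vehicle, and those of Egr3 from 5.61 to 6.47 and from 7.93 to 8.99, with no overlap of the groups.

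The difference in log2(value + 0.1), siRNA minus vehicle, was -0.38 ± 0.103 (SE) for Egr2 with an adjusted p of 0.00256, and -0.49 ± 0.126 for Egr3 with an adjusted p of 0.00186 (limma, 496 genes tested). The 95% intervals were -0.60 to -0.17 for Egr2 and -0.75 to -0.22 for Egr3. They borrow variance from the other tested genes, which were deposited as part of the same comparison, so they may be too narrow. In this list 98.4% of the tested genes passed, 48.8% lower and 49.6% higher with siRNA, so a passing gene is no evidence of an effect. Equally, the groups did not overlap in 96.8% of the 496 genes, 48.0% being lower with siRNA. The exact two-sided permutation test of a single gene gave p = 0.33 for Egr2 and p = 0.20 for Egr3, in each case the smallest that its libraries allow. Among the 242 genes that were lower with siRNA, the median log2 difference was -0.27. A fall at least as large as that of Egr2 was seen in 67 of them, Egr2 included, and as large as that of Egr3 in 37. Leaving out siRNA 1 or 3 or vehicle 1 or 3 left a group with 1 value of Egr2, and leaving out vehicle 1 or 3 left 1 vehicle value of Egr3. In these fits limma assumes that the lone value varies like those of the other group, so they say little about stability. Leaving out library 2 of either group removes no value of Egr2.

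Vehicle 3 did not stand apart for Egr2 and Egr3 in the way it did for Egr1 and Fos. Its value was 0.971 times that of vehicle 1 for Egr2 and 1.13 times for Egr3. Over 487 genes of the second list, the median log2 distance of vehicle 3 from the mean of vehicle 1 and 2 was 0.06. These genes had a value in vehicle 3 and in vehicle 1, vehicle 2 or both, and a lone value stood for the mean. Of the genes present in both lists, 14 had such values, and their median distance was 2.66 by counts but 0.11 by the second list. For the same genes, the same library was thus placed differently by the deposited tables. For this reason the folds of Egr1 and Fos and the differences of Egr2 and Egr3 were not set against each other.

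The few listed markers of the fat cell lineage were among the lower genes too. All 3 listed adipocyte markers were lower with siRNA (limma), in a list where 48.8% of tested genes were called lower and 98.4% were called in either direction, with log2 differences of -1.47 ± 0.155 for the adipokine gene Adipoq, -0.29 ± 0.0506 for the lipase gene Lpl and -0.13 ± 0.0516 for the desaturase gene Scd1, whose call was lost on centring (adjusted p = 0.242). Adipoq had 3.47 and 2.83 in siRNA 1 and 3, against 8.76 and 8.96 in vehicle 1 and 2. The 3 listed preadipocyte and fibroblast markers were also lower, at -0.27 for Pdgfra, -0.39 for Ly6a and -0.21 for Col3a1. Collagen genes outside these marker lists went both ways, such as Col6a2 at -0.21 and Col6a3 at 0.17. The listed markers therefore do not stand for all genes of these cells. The part of the cells' stage or makeup in the values of Egr2 and Egr3 was not tested.

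The proportion of Egr2 to Egr3 did not separate the groups. The ratio of Egr2 to Egr3 was 2.38 and 2.44 for siRNA libraries 1 and 3, against 2.49 and 2.14 for the vehicle libraries of these numbers, with overlapping groups. The log2 ratio differed by 0.06 ± 0.113 (SE, n = 2 each, exact two-sided permutation p = 1.00, where no p below 0.33 is possible). The genes most like Egr2 over the 4 libraries with a value were Gas1, a growth arrest gene (distance 0.00961), Spp1, which encodes osteopontin (0.0222), and Gstt1, a glutathione transferase (0.0305), against a median of 0.197 over 334 genes. Egr3 itself came at rank 44 of these (0.0841). For Egr3, over 5 libraries, they were Mgst1, a microsomal glutathione transferase (0.0657), Ly6c1, a surface protein (0.0669), and Vdr, the vitamin D receptor (0.0705), against a median of 0.200 over 299 genes. Gas1 had values of 299 and 334 in siRNA libraries 1 and 3, against 411 and 406 in the vehicle libraries of these numbers. The log2 difference between the groups was -0.37 for Gas1, -0.39 for Spp1 and -0.33 for Gstt1, near the -0.38 of Egr2. As the groups did not overlap in 96.8% of tested genes, such distances can reflect little more than a similar group difference.

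The other immediate early genes of the second list moved in both directions. Of 60 symbols in a list of immediate early genes, in which older and newer names of a gene count separately, 10 were in the second list, and 4 were lower and 6 higher with siRNA (limma), against 48.8% lower and 49.6% higher over all tested genes. Their median log2 difference was 0.21, and that of all 496 genes was 0.13. Besides Egr2 and Egr3, the lower ones were Cebpb and Sik1. Cebpb encodes the adipogenic factor C/EBP beta and had values of 126, 113 and 114 in siRNA libraries, against 155, 171 and 150 in vehicle libraries, a log2 difference of -0.43 ± 0.0577 (adjusted p = 3.48e-06, limma). Sik1, a salt-inducible kinase that responds to cAMP, had 9.64 and 8.96 in siRNA 1 and 2, against 11.7, 12.4 and 11.6 with vehicle (-0.35 ± 0.105). In both genes every siRNA value lay below every vehicle value, as in 48.0% of all tested genes.

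The higher ones encode matricellular proteins, growth arrest factors and a Krüppel-like factor. Ctgf, a matricellular growth factor, had values of 713, 683 and 728 in siRNA libraries, against 567, 547 and 491 in vehicle libraries, a log2 difference of 0.41 ± 0.0511 (adjusted p = 1.75e-06, limma). Its relative Cyr61 had 547, 542 and 621 with siRNA against vehicle values of 479, 483 and 451 (0.27 ± 0.0519). The groups did not overlap for either gene, as in 96.8% of all tested genes (either direction). The log2 differences of the stress and growth arrest genes Gadd45b and Gadd45g were 0.43 ± 0.0816 and 0.28 ± 0.0528, that of the antiproliferative gene Btg1 was 0.24 ± 0.0521, and that of the transcription factor Klf6 was 0.18 ± 0.0509. All 10 kept their direction and their call when libraries were centred on their median. Npas4, a neuronal immediate early factor outside that list and chosen after its value was seen, was at 0.57 ± 0.102 (adjusted p = 8.74e-05, limma).

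**Figure D5:**
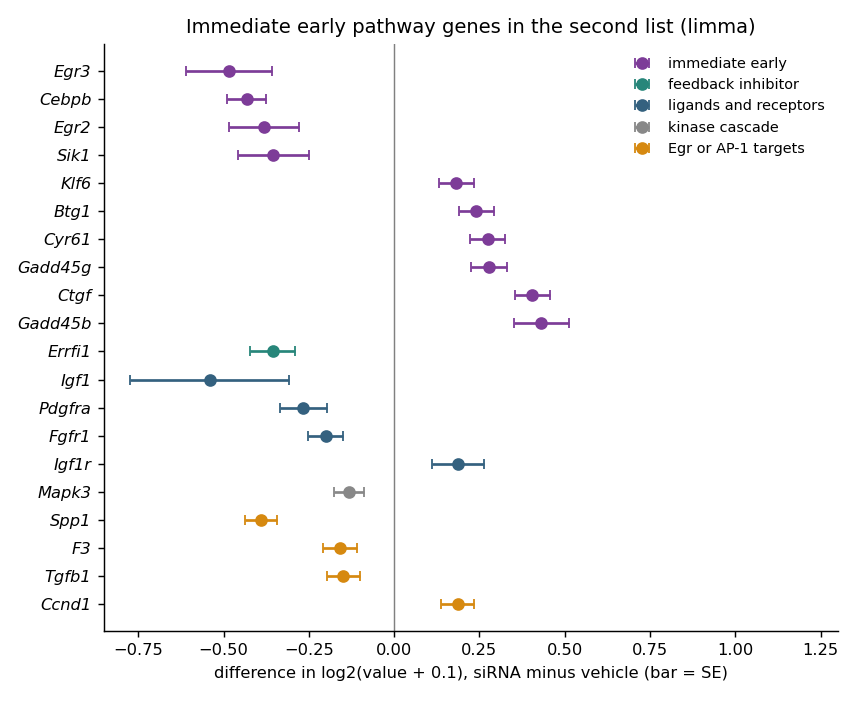
Difference in log2(value + 0.1) between siRNA and vehicle (horizontal axis, limma, bars are SE) of the listed genes of the immediate early pathway in the second list (rows, coloured by role). Egr3 (-0.49), Cebpb (-0.43), Egr2 (-0.38) and Sik1 (-0.35) lie left of 0, and the other 6 immediate early genes lie right of it, up to Gadd45b (0.43).

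Upstream of these genes, 4 of 39 listed ligands and receptors were in the second list, 3 lower and 1 higher with siRNA. Of all tested genes there, 48.8% were called lower and 49.6% higher. The ligand gene Igf1 had 1.39 and 1.37 in siRNA 1 and 3, against 1.84 and 2.29 in vehicle 1 and 2 (log2 difference -0.54 ± 0.232, adjusted p = 0.0322, limma, and 0.0684 when centred on the median). Pdgfra, a receptor that marks fat cell precursors, was at -0.27 ± 0.0698, and the fibroblast growth factor receptor Fgfr1 at -0.20 ± 0.0504. The receptor gene Igf1r was higher, at 0.19 ± 0.0764. Of 32 genes of the kinase cascade and its nuclear factors only Mapk3, which encodes ERK1, was listed. Mapk3 had 409, 409 and 432 with siRNA and 459, 457 and 453 with vehicle (-0.13 ± 0.0437, adjusted p = 0.00799), a call that was lost on centring (adjusted p = 0.190, limma). Among 16 feedback inhibitors only Errfi1, an inhibitor of the EGF receptor, was listed, with 49.4, 52.4 and 57.3 with siRNA against 64.9, 65.8 and 73.0 with vehicle (-0.36 ± 0.0659, adjusted p = 1.07e-04).

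Of 20 genes known as targets of Egr factors or AP-1, 4 were in the second list, 3 lower and 1 higher with siRNA (limma). Over all tested genes of that list, 48.8% were called lower and 49.6% higher. Ccnd1, which encodes cyclin D1, was higher at 0.19 ± 0.0478. Spp1 was lower at -0.39 ± 0.0464. Tissue factor (F3) and Tgfb1 were lower at -0.16 ± 0.0496 and -0.15 ± 0.0475, but not past the threshold when centred on the median (adjusted p = 0.0903 and 0.119). In the count list, the matrix metalloproteinase gene Mmp9 and the chemokine gene Ccl2 had log2 folds of -1.06 ± 1.01 and -1.50 ± 0.800, and 0.47 and -0.23 without vehicle 3. Neither passed, and vehicle 3 was the highest library for both. Stress genes were also divided, with Hsp90aa1 and Hspd1, which encode chaperones, at 0.18 ± 0.0450 and 0.18 ± 0.0477, and the growth arrest gene Gadd45a at -0.32 ± 0.0669. These 3 were the listed ones of 14 heat shock and stress genes.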

How the data were processed

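Poly(A) RNA of 6 mouse cell libraries was sequenced on a DNA nanoball platform. HISAT, Bowtie2, RSEM and DESeq2 are named by the study or in the submitters' processing notes, with versions, genome build and strand use not given in the sources used here. Estimated counts of 232 genes were deposited by the authors as read counts, beside their own group means, log2 ratios and p-values, which were not used. Deposited values of 602 genes, 17 of them also in the count list, were treated as a score of unknown scale. Of their 3612 cells 3042 held a number, and 528 date-format and 42 calendar-date cells were ignored. How the authors made these values, and why they filled in cells, is not given.

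The sample titles name no batch, and no batch term was used in any fit. Groups and replicate numbers came from sample titles. Counts were rounded and tested with edgeR 4.0.16 (R 4.3.3), siRNA against vehicle, with 1 common library size and a summed count of at least 10. Values of the second list entered limma 3.58.1 with its trend option as log2(value + 0.1), for 496 genes having 2 or more genuine values per group. P-values were adjusted over each list by the Benjamini-Hochberg method (threshold 0.05), and lists were normalized separately. DESeq2 1.42.0, limma-voom, other scalings, filters and pseudocounts, blocks and left-out libraries were alternatives. Scripts were tested on simulated libraries of equal depth in which most genes were unchanged. That setting held no library standing apart and no preselected gene list, so it does not cover these features of the data. Ratios of Fos to Egr1 used 0.5 added to each count. Poisson intervals cover counting error only. The SE of an edgeR log2 fold was derived as its absolute value over the square root of the test's F statistic.

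The named genes are the 4 genes, all listed members of the pathway lists other than a gene that is not reported here, and the 3 genes most like each of the 4. The genes and lists were chosen with earlier results of these data known, and the members of both deposited lists had been selected by the authors.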

Additional observations from a re-analysis of the deposited data

How the results depend on the processing

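Leaving out each library in turn gave log2 folds of -1.65 to -0.16 for Egr1 and of -1.62 to -0.24 for Fos, the value nearest 0 being that without vehicle 3. The Egr1 fold was 0.0549 under TMM, 0.00250 with listed totals as library sizes and 0.0263 with DESeq2's own size factors, and that of Fos was 0.0201, -0.0213 and -0.00302 under the same settings, so its sign went both ways. Ratios of group medians, chosen after seeing the data, gave -0.49 for Egr1 and -0.68 for Fos. Without vehicle 3 and scaled by TMM, also chosen after seeing the data, they were -0.12 and -0.20. The adjusted p of Egr1 and Fos was 0.213 or more under every alternative that gave a p. Genes of the count list that passed numbered 1 with DESeq2's own size factors, 1 without vehicle 3 under TMM, and 0 to 6 on leaving out a library (6 without vehicle 1, 5 without vehicle 2). Egr2 ranged from -0.46 to -0.30 and Egr3 from -0.57 to -0.40 over all their alternatives, with adjusted p-values of up to 0.0286 and 0.0317. The ends of both ranges and these p-values come from fits with 1 value in a group, which limma assumes to vary like the other groups. When genuine values in all 6 libraries were required, 271 of 273 genes passed and neither Egr2 nor Egr3 could be tested. On leaving out a library the second list gave 466 to 488 genes. The difference in the log2 ratio of Fos to Egr1 then ranged from -0.0807 to 0.0717, and that of Egr2 to Egr3 from -0.0513 to 0.172. With the replicate number as a block the log2 folds were -0.81 for Egr1 and -0.83 for Fos, and the differences -0.38 for Egr2 and -0.44 for Egr3, with 0 and 445 genes passing. Same-numbered libraries correlated at -0.04 to 0.27 in the count list and 0.03 to 0.25 in the second list. Some libraries correlated best with their own number and others did not. With 3 libraries per group, these correlations cannot decide whether same-numbered libraries were paired. Library depth is unknown, and groups of 2 or 3 libraries limit every comparison.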
